A study of Homo sapiens with 65 samples.

Results

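The calcium handling genes described here are 9 of the 58735 genes in a table of 3′ RNA-seq read counts: CACNA1C, RYR2, TRDN, HRC, CASQ2, ATP2A2, PLN, SLN and SLC8A1. They were listed by name for their roles in the calcium cycle of heart muscle, and all 9 were found in the table by their Ensembl identifiers. The samples were left-ventricular cardioids, self-organising heart-like aggregates grown from the human induced pluripotent stem cell line WTC-11. Each of the 65 libraries pooled 8 cardioids. The labels call the material cardiac progenitors at days 1.5, 2.5 and 4.5 and cardiomyocytes at day 7.5. The libraries formed 16 groups in 2 arms.

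The genotype arm (41 libraries) set wild-type cardioids (WT) beside cardioids of clones labelled knockout for HAS2 (KO). HAS2 encodes a synthase of hyaluronan, a sugar polymer of the extracellular matrix. Day 1.5 was covered by 5 WT and 6 KO libraries, days 2.5 and 4.5 by 6 of each genotype, and day 7.5 by 3 of each. The WT lines are named WT, WT_TU, cl43_WT_UT or TNT2, and the KO clones, 4 in all, cl4, cl14, cl46 or cl51; some were repeated as R1 to R3. The enzyme arm (24 libraries) held wild-type cardioids in 8 groups of 3, 1 library from each of the lines TNNI1, WT and TNNT2. Untreated cardioids and cardioids given hyaluronidase from day 1.5 (HAse1.5) were collected at days 2.5, 4.5 and 7.5, and cardioids given the enzyme from day 2.5 (HAse2.5) at days 4.5 and 7.5. Hyaluronidase cuts hyaluronan, and treatment lasted until collection. All groups, controls included, went through the same directed differentiation, with mesoderm induction by FGF2, LY294002, Activin A, BMP4 and CHIR99021 and later patterning with BMP4, FGF2, insulin, C59 and retinoic acid.

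In each heartbeat, calcium enters the cardiomyocyte through L-type channels and opens ryanodine receptors, which release far more calcium from the sarcoplasmic reticulum. The sarcomere contracts, and the calcium is then pumped back into the reticulum by SERCA2 or carried out of the cell by the sodium-calcium exchanger. Phospholamban and sarcolipin are small membrane proteins that inhibit the pump, while calsequestrin, triadin and the histidine-rich calcium-binding protein work inside or at the membrane of the store.

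The genes lie on 6 chromosomes (GRCh38, GENCODE 29). CACNA1C, the pore of the L-type channel, is at chr12:1970786-2697950 on the plus strand. Of the release genes, RYR2, the ryanodine receptor of heart, is at chr1:237042205-237833988 (plus), TRDN (triadin) at chr6:123216339-123637093 (minus), HRC (the histidine-rich calcium-binding protein) at chr19:49151198-49155424 (minus) and CASQ2 (cardiac calsequestrin) at chr1:115700007-115768781 (minus). The pump gene ATP2A2, which encodes SERCA2, is at chr12:110280756-110351093 (plus), with its inhibitor genes PLN (phospholamban) at chr6:118548298-118560730 (plus) and SLN (sarcolipin) at chr11:107707378-107719693 (minus). SLC8A1, the sodium-calcium exchanger, is at chr2:40097270-40611053 (minus). PLN lies inside CEP85L, which is read from the opposite strand and overlaps the 3′ end of PLN. CACNA1C, RYR2, SLC8A1 and TRDN also overlap genes on the opposite strand. The strand setting of the counting is not given in the sources used here, so reads of such partners cannot be told apart from the values alone. Other partners lie on the same strand, where a strand setting would not separate them. The most read were AC007618.1 in CACNA1C (896 counts in all, beside 5435) and RN7SKP195 in RYR2 (584, beside 52524). At day 1.5, PLN had no count in any of the 11 libraries while CEP85L stood at 58.9 ± 41 CPM in WT (SD, n = 5), CPM being the count scaled by the total of its library.

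Promoters are shown for the 4 genes whose levels differed between genotypes or with the enzyme in the tests described further on. RefSeq (GRCh38.p14) gave 11 start sites for 8 of the 9 genes; SLN had no entry. Each sequence is the 250 bases before a RefSeq start, which need not be the GENCODE start, written 5′ to 3′ on the strand of the gene. Capitals mark matches to 5 motifs searched on both strands: MEF2 and CArG (by name), the GATA motif GATAAG, the TATA box as TATAAA, and the T-box half-site AGGTGT. The sites are chr6:118548046-118548295 for PLN, chr12:110280366-110280615 for the first ATP2A2 start, chr2:40512436-40512685 for the first SLC8A1 start and chr12:2052737-2052986 for CACNA1C.
PLN: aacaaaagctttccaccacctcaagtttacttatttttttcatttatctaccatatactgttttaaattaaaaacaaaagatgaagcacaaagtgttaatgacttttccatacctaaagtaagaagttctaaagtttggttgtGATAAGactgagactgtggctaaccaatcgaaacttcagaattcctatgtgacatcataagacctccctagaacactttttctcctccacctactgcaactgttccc
ATP2A2: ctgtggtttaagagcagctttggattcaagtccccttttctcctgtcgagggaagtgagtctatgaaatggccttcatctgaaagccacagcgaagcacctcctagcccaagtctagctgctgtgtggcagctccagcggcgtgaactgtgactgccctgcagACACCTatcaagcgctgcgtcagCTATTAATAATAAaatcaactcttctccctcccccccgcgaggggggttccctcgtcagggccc
SLC8A1: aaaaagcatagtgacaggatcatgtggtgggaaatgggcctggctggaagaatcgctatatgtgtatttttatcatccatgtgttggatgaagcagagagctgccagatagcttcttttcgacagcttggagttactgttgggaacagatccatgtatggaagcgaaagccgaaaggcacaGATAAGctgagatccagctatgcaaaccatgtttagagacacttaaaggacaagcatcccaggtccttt
CACNA1C: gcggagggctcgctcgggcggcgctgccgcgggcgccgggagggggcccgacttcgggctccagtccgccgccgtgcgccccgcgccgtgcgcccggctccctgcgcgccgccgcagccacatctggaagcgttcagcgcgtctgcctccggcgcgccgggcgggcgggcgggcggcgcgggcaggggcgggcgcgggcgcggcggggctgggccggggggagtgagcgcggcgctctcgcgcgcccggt
In PLN the capitals are a GATA motif that begins 107 bases before the start, and in SLC8A1 a GATA motif at 69 bases. In ATP2A2 they are a T-box half-site on the opposite strand (87 bases before the start) followed by a pair of overlapping MEF2 matches (64 and 61 bases). The window of CACNA1C held none of the 5 motifs and was 85.6% G and C. The other windows shown had 34.8% (PLN), 44.8% (SLC8A1) and 54.8% (ATP2A2). This did not set CACNA1C apart as a gene. Windows of another SLC8A1 start (83.2%), another ATP2A2 start (80.4%) and RYR2 (75.2%) also held no motif. A MEF2 match was also found 197 bases before CASQ2, and a pair of TATA boxes before another SLC8A1 start. None of the 11 windows held a CArG match. Over all 35116 RefSeq promoters, 2.8% held MEF2, 1.16% CArG, 5.65% the GATA motif, 10.7% the TATA box and 9.57% the T-box half-site, so a match describes these letters only.

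Total counts ran from 831062 to 3574843 per library, with a median of 1570954. HAS2 itself stood at 339 ± 133 CPM in WT and 351 ± 74.5 CPM in KO at day 4.5 (SD, n = 6 each). The labels do not place the edit within the gene, and 3′ counts do not check an edit that leaves the 3′ end transcribed, so KO below means labelled KO. The skeletal muscle regulators MYOG and MYF5 had no count in any library and MYOD1 had at most 1, while the summed CPM of 15 sarcomere genes reached 80728 to 95845 in untreated cardioids at day 7.5. Differences were tested with edgeR's quasi-likelihood F-test (two-sided) and Benjamini-Hochberg adjustment over all genes tested in the arm (13797 in the genotype arm, 12748 in the enzyme arm), and a gene passed at an adjusted p under 0.05. Of the 9 genes, 7 passed the filter on low counts in both arms; CASQ2 and SLN did not and are described on their own. The labels speak of biological replicates but do not say that repeats of a line were separate differentiations, so p-values measure the spread between these samples. Since each library is a bulk pool, fewer cells of a type and less RNA per cell cannot be told apart.

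From day 2.5 to day 4.5 the 7 tested genes rose in WT, KO and untreated cardioids, all but ATP2A2 from low or undetected levels. All 7 rose in each of these 3 steps, against 18.6% of all genes tested that rose in WT, 15.6% in KO and 12.0% in untreated cardioids. PLN gave the clearest switch. It had 3 counts or fewer in every library up to day 2.5 and 0 in most, and the largest CPM such a library allows at 3 counts is 3.61. At day 4.5 it stood between 184 and 433 CPM in WT (median 296), at least 201-fold higher than the floor of 3 counts per library. The same bound was at least 73.3-fold in KO and at least 125-fold in untreated cardioids.

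**Figure D1:**
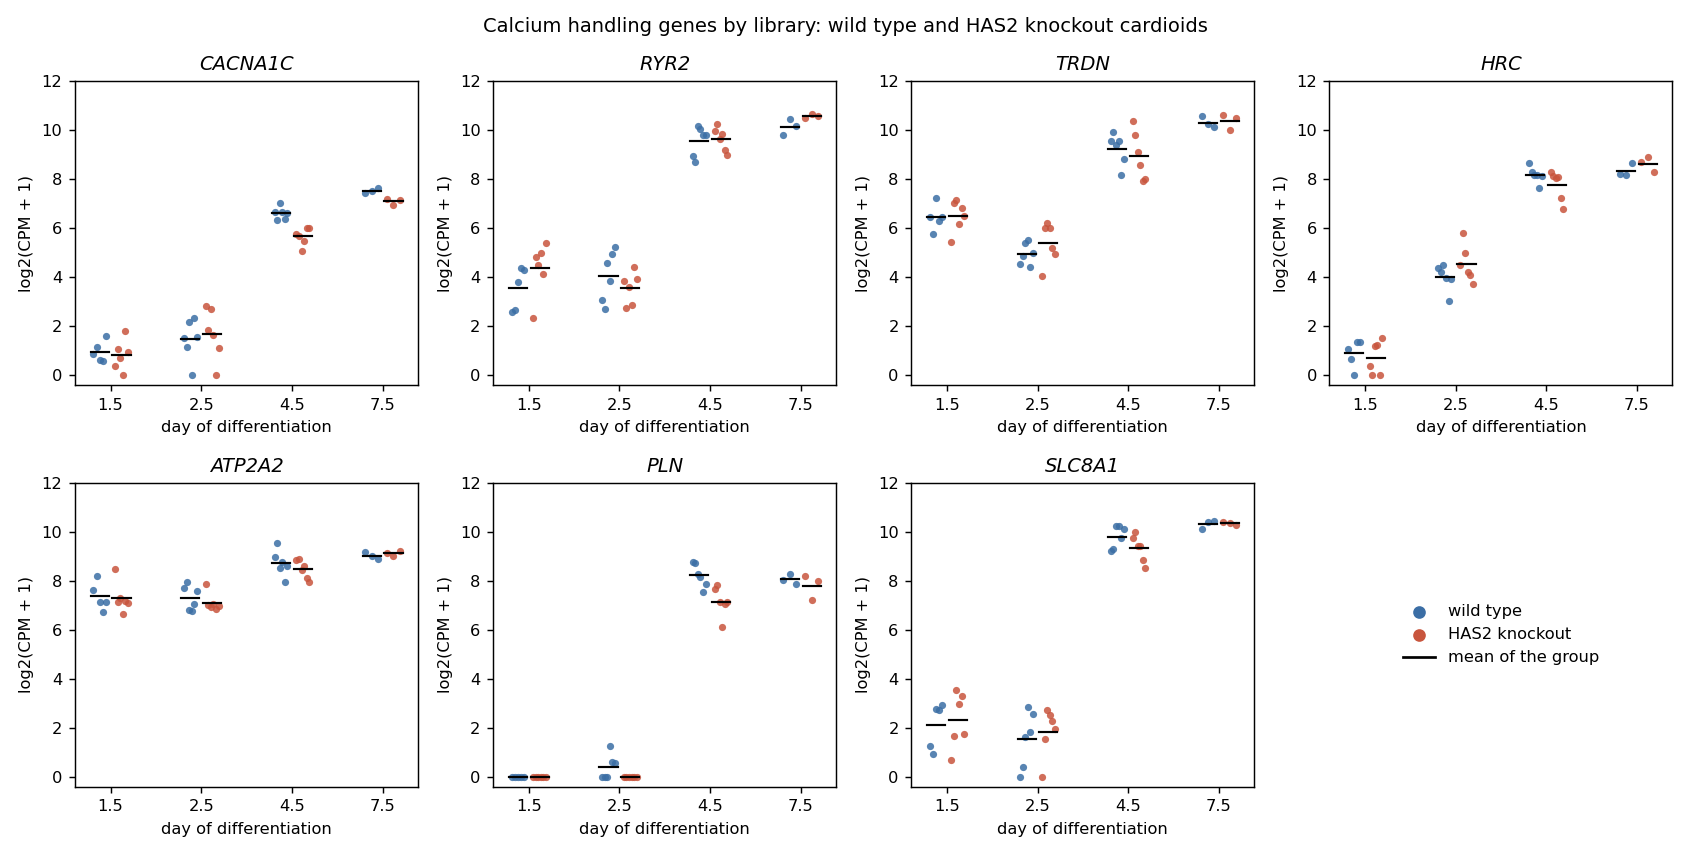
CPM of the 7 tested calcium handling genes in each library of the genotype arm (log axis, 1 panel per gene) by day, with WT and KO side by side. Points are libraries and bars are group means of log2(CPM + 1). All 7 genes stand higher at day 4.5 than at day 2.5 in both genotypes, and PLN is at or near 0 until then.

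The entry channel gene CACNA1C was barely read at day 2.5, with 0 to 4.08 CPM in WT (median 1.90) and 0 to 6.02 CPM in KO (median 2.32). At day 4.5 it reached 79.5 to 129.6 CPM in WT (median 97.5), a rise of 5.56 on the log2 scale (SE 0.37, edgeR adjusted p = 2.59e-15). At day 7.5 it stood at 173, 180.1 and 199 CPM in WT and at 144, 122 and 140.0 CPM in KO. The later step passed in KO (log2 difference 1.47, SE 0.32, edgeR adjusted p = 0.00211), in untreated cardioids (1.12, SE 0.32, edgeR adjusted p = 0.0357) and in HAse2.5 (1.66, SE 0.33, edgeR adjusted p = 0.00911), where it was 1 of 7 members against 1.33% of all genes. In WT it did not pass (0.94, SE 0.32, edgeR adjusted p = 0.117), although the day 7.5 libraries all stood above the day 4.5 libraries, as for 4.17% of all genes tested. In HAse1.5 the groups of the later step overlapped (27.7 to 54.6 CPM, then 46.5 to 73.3 CPM) and it did not pass (log2 difference 0.79, edgeR adjusted p = 0.163). The untreated step was lost when any of 5 of its 6 libraries was left out (edgeR adjusted p 0.0532 to 0.167), the exception being line TNNI1 at day 4.5. The HAse2.5 step was lost without line TNNT2 at day 4.5 (edgeR adjusted p = 0.0582).

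Among the release genes, RYR2 was read at every day. It stood at 5.55 to 36.4 CPM in WT at day 2.5 (median 18.0) and at 417 to 1137 CPM at day 4.5 (median 884), a rise of 5.46 (log2, SE 0.45, edgeR adjusted p = 1.09e-12). The WT libraries of day 4.5 were of 2 kinds for this gene: WT R1 and WT_TU R1 had 488 and 417 CPM, and the other 4 had 882 to 1137 CPM. TRDN, which ties the ryanodine receptor to calsequestrin, behaved differently early on. It was already at 53.6 to 149.9 CPM in WT at day 1.5 (median 86.8), fell to 20.4 to 45.4 CPM at day 2.5 (median 29.7, log2 difference −1.74, SE 0.39, edgeR adjusted p = 0.000558) and then rose to 288 to 982 CPM at day 4.5 (median 709). The same dip passed in KO, from a median of 101 CPM to 49.1 CPM (log2 difference −1.23, edgeR adjusted p = 0.00862).

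HRC, which binds calcium inside the reticulum, rose before the others. It had 0 to 1.55 CPM in WT at day 1.5 (median 1.12), 7.14 to 21.4 CPM at day 2.5 (median 16.1) and 196 to 402 CPM at day 4.5 (median 287). The step from day 1.5 to 2.5 was 3.76 on the log2 scale in WT (SE 0.50, edgeR adjusted p = 1.15e-07) and 4.76 in KO (edgeR adjusted p = 5.45e-10). In that first step, HRC rose and TRDN fell in WT, 2 of 7 members against 30.1% of all genes tested that passed in either direction. In KO, RYR2 fell as well (median 24.3 to 12.2 CPM, log2 difference −1.19, edgeR adjusted p = 0.03), against a background of 33.3%. That RYR2 call was lost in 9 of 18 alternatives, among them leaving out single libraries. With replicate names as a block, ATP2A2 also fell in KO in this step (log2 difference −0.46, edgeR adjusted p = 0.024).

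The pump gene ATP2A2 was never low, and its rise from day 2.5 to 4.5 was the smallest of the 7 in WT, KO and untreated cardioids. It stood at 106 to 290.4 CPM in WT at day 1.5 (median 141), 109.6 to 245 CPM at day 2.5 (median 162) and 247 to 743 CPM at day 4.5 (median 410.0). From day 2.5 to 4.5 it rose by 1.47 on the log2 scale in WT (SE 0.29, edgeR adjusted p = 9.31e-05), by 1.41 in KO (edgeR adjusted p = 0.000206) and by 1.55 in untreated cardioids. The pump was thus read at days when its inhibitor PLN was not. WT R1 and WT_TU R1, of the first block of library numbers, were the highest 2 WT libraries at each of these days.

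SLC8A1, the exporter, had 0 to 6.28 CPM in WT at day 2.5 (median 2.34) and 591 to 1215 CPM at day 4.5 (median 971). The rise was 8.62 on the log2 scale (SE 0.56, edgeR adjusted p = 1.38e-15), and 7.63 in KO and 7.72 in untreated cardioids. As for RYR2, WT R1 and WT_TU R1 were the lowest WT libraries at day 4.5, with 591 and 629 CPM against 852 to 1215 CPM in the other 4.

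From day 4.5 to 7.5 fewer members passed. In WT, 0 of 7 passed (edgeR), against 2.7% of all genes tested; 2 (CACNA1C and TRDN) had an unadjusted p under 0.05, and DESeq2 called 1. In KO and untreated cardioids CACNA1C was the 1 gene that rose, against 3.21% and 3.45% of all genes. At an unadjusted p under 0.05 there were 5 members in KO, 4 in untreated, 6 in HAse1.5 and 4 in HAse2.5 cardioids. All day 7.5 libraries stood above all day 4.5 libraries for 4 of 7 members in KO (7.01% of all genes), 3 in untreated (9.77%), 5 in HAse1.5 (10.2%) and 5 in HAse2.5 (9.66%). The KO libraries of day 7.5 were cl4 R2, cl4 R3 and cl14, so this KO step sets clones that include cl46 and cl51 at day 4.5 beside clones that do not. The WT libraries of day 7.5 likewise lacked the lines cl43_WT_UT and TNT2. With replicate names as a block, ATP2A2 also rose in KO (log2 difference 0.76, edgeR adjusted p = 0.0101). PLN stood at 263, 308 and 236 CPM in WT at day 7.5, within its day 4.5 range. In untreated cardioids, PLN differed widely between lines at day 7.5, with 57.1 CPM in TNNI1, 250.2 CPM in WT and 90.5 CPM in TNNT2, after 237, 288 and 214 CPM at day 4.5.

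KO was compared with WT to ask whether loss of the synthase altered the calcium genes. At day 4.5, KO cardioids had lower PLN and lower CACNA1C, 2 of 7 members against 2.6% of all genes tested that fell. PLN was at 201, 227, 138, 68.3, 134 and 140.1 CPM in KO (cl4 R1 to R3, cl14, cl46 and cl51) and at 433, 425, 307, 284, 184 and 233 CPM in WT (WT R1, WT_TU R1, WT R2, WT_TU R2, cl43_WT_UT and TNT2). The groups overlapped only through cl4 R1 and cl4 R2, which stood above the lowest WT library, cl43_WT_UT. The difference was −1.12 on the log2 scale (SE 0.29, 95% interval −1.71 to −0.53, edgeR adjusted p = 0.0268). CEP85L, on the other strand, did not pass (log2 difference 0.66, edgeR adjusted p = 0.41).

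CACNA1C was at 53.8, 50.1, 32.9, 44.1, 62.5 and 62.5 CPM in KO and at 99.0, 79.5, 129.6, 99.6, 83.1 and 95.9 CPM in WT, in the same order of libraries. Every KO library stood below every WT library, which held for 1.19% of all genes tested and for no other member. The log2 difference was −1.01 (SE 0.27, 95% interval −1.57 to −0.46, edgeR adjusted p = 0.0286). Both calls sat near the threshold. PLN lost its call without any 1 of 6 libraries (WT R1, WT_TU R1, cl4 R3, cl14, cl46 or cl51; edgeR adjusted p 0.0619 to 0.0854), and CACNA1C without any 1 of 5 (WT R1, WT R2, cl4 R3, cl14 or cl51; 0.0506 to 0.0864). Library numbers ran in 3 blocks; within the last of them, which holds WT and KO together, the log2 differences were −0.83 for PLN (edgeR adjusted p = 0.127) and −0.85 for CACNA1C (0.0961).

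The other 5 genes did not pass at day 4.5, and each of their groups overlapped. RYR2 was at 501 to 1222 CPM in KO (median 855) and had a log2 difference of −0.00 (SE 0.37, edgeR adjusted p = 0.999), whose sign turned under 6 alternatives of scaling, filter, block or tool. TRDN ran from 242 to 1311 CPM in KO (median 462, log2 difference −0.16), HRC from 109 to 312 CPM (median 268, −0.42), ATP2A2 from 244 to 470.5 CPM (median 366, −0.36) and SLC8A1 from 366 to 1006 CPM (median 691, −0.51), with edgeR adjusted p between 0.454 and 0.84. The median over the 7 members was −0.42, beside −0.03 over all genes tested. Clones differed within KO: cl46 and cl51 were the lowest 2 KO libraries for each of these 5 genes, yet the highest 2 for CACNA1C.

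At the other days no member passed. At day 1.5, 0 of 7 passed (edgeR) against 0.0% of all genes, 1 (RYR2) had an unadjusted p under 0.05, and DESeq2 called 0. At day 2.5, 0 passed against 0.993%, with 0 at an unadjusted p under 0.05 and 0 by DESeq2. At day 7.5, 0 passed against 0.348%, again with 0 and 0. There CACNA1C was still lower in all 3 KO libraries than in all 3 WT libraries (log2 difference −0.48, 95% interval −1.24 to 0.29), and RYR2 was higher in all 3 (1439, 1625 and 1508 against 886, 1394 and 1135 CPM, log2 difference 0.39, 95% interval −0.66 to 1.43). Such separation held for 16.8% of all genes at that day. The lowest WT value of RYR2, 886 CPM, was that of WT R1. That library is of the first block of library numbers, which had no KO library at day 7.5. The change of the KO effect itself, from day 2.5 to 4.5 and from day 4.5 to 7.5, passed for 0 of 7 members (edgeR, against 0.609% and 0.159% of all genes), with 2 (CACNA1C and HRC) and 0 at an unadjusted p under 0.05 and 0 in both by DESeq2. A difference in the KO effect between days was therefore not shown for any of them. Both the WT lines and the KO clones differed between days 4.5 and 7.5.

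Sarcomere genes of cardiomyocytes and markers of smooth muscle moved beside these values. Of 15 sarcomere genes, 8 fell in KO at day 4.5 (median log2 difference −1.34), against 2.6% of all genes tested. Their summed CPM was 20157 to 50153 in KO and 40965 to 74131 in WT. At day 7.5, 0 of 15 passed (edgeR) against 0.348% of all genes, with 1 at an unadjusted p under 0.05 and 0 by DESeq2. The clones cl46 and cl51, whose sums were the lowest 2 at day 4.5, are not among the day 7.5 libraries. Of 5 smooth muscle genes, 3 fell at day 4.5, against the same 2.6%, with sums of 146 to 627 CPM in KO and 543 to 1711 CPM in WT. At day 7.5 their sums were higher in every KO library (1437 to 1527 CPM) than in WT (958 to 1277 CPM). Of all genes tested, 9.11% stood higher in this way as single genes. Of the 5 smooth muscle genes, 0 passed (edgeR), with 1 at an unadjusted p under 0.05 and 0 by DESeq2. Their part in the lower PLN and CACNA1C was not tested.

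Hyaluronidase from day 1.5 was compared with no enzyme to ask the same of removal of the polymer. At day 4.5, the exporter SLC8A1 and the pump ATP2A2 were lower, 2 of 7 members against 2.41% of all genes tested that fell. SLC8A1 was at 19.2, 188 and 43.1 CPM in HAse1.5 (lines TNNI1, WT and TNNT2) and at 1076, 709.6 and 654 CPM in untreated cardioids. The groups were far apart, and the log2 difference was −3.40 (SE 0.54, 95% interval −4.52 to −2.27, edgeR adjusted p = 0.00111). That call was lost when only these 2 groups were fitted (edgeR adjusted p = 0.17) and held without any 1 library. ATP2A2 was at 138, 204 and 139.7 CPM in HAse1.5 and at 458, 265 and 273 CPM in untreated cardioids (log2 difference −1.14, SE 0.21, edgeR adjusted p = 0.00244).

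**Figure D2:**
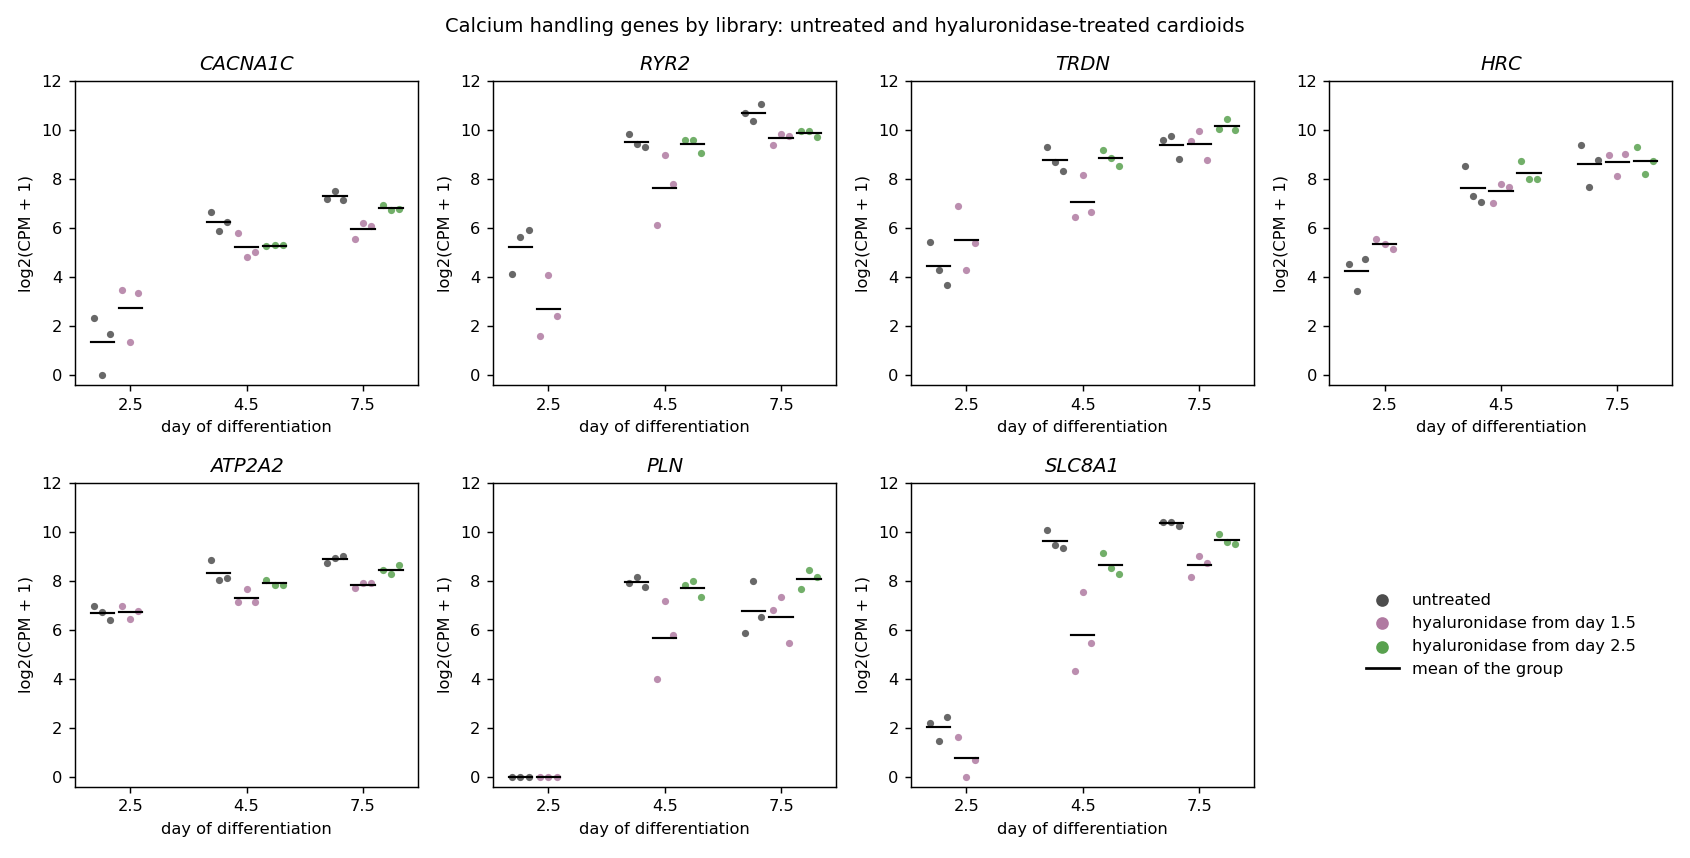
CPM of the 7 tested calcium handling genes in each library of the enzyme arm (log axis, 1 panel per gene) by day, for untreated, HAse1.5 and HAse2.5 cardioids. Points are libraries and bars are group means of log2(CPM + 1). At day 4.5 the HAse1.5 libraries of SLC8A1 sit between 19.2 and 188 CPM, below the untreated libraries at 654 to 1076 CPM.

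Of the 7 members, 6 were lower in every HAse1.5 library than in every untreated library at day 4.5, against 8.87% of all genes tested, and 2 of these 6 passed the test. RYR2 was at 68.9, 502 and 222 CPM against 923, 686 and 635 CPM (log2 difference −1.58, edgeR adjusted p = 0.123). TRDN was at 86.3, 283 and 99.5 CPM against 640.1, 418 and 321 CPM (−1.65, edgeR adjusted p = 0.122). PLN was at 14.9, 142 and 54.7 CPM against 237, 288 and 214 CPM (−1.90, edgeR adjusted p = 0.166), and CACNA1C at 54.6, 27.7 and 32.0 CPM against 99.6, 57.7 and 75.8 CPM (−1.11, edgeR adjusted p = 0.0684). HRC was the member whose groups overlapped, at 128, 223 and 203 CPM against 369.9, 158 and 135 CPM (−0.35). The median over the members was −1.58, beside 0.02 over all genes.

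The replicate numbers of the enzyme arm stand for the 3 lines, and with the line as a block PLN (log2 difference −2.13, edgeR adjusted p = 0.0308) and CACNA1C (−1.11, edgeR adjusted p = 0.0434) passed too. Line WT held the highest HAse1.5 value of RYR2, TRDN, HRC, ATP2A2, PLN and SLC8A1 and the lowest of CACNA1C. Without it in HAse1.5, RYR2 (log2 difference −2.46, edgeR adjusted p = 0.0091), PLN (−2.90, 0.0288) and TRDN (−2.41, 0.0247) passed. Leaving out the highest library of the lower group favours such calls, so they are no separate support.

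The rise from day 2.5 to 4.5 was still seen for 5 of 7 members in HAse1.5 cardioids, against 11.7% of all genes tested that rose. SLC8A1 rose at least 39.5-fold and PLN at least 33.4-fold over the floor of 3 counts per library (14.8-fold and 16.5-fold without line WT at day 4.5), RYR2 by 5.02, CACNA1C by 2.21 and HRC by 2.03 on the log2 scale. ATP2A2 (0.42, edgeR adjusted p = 0.172) and TRDN (1.23, edgeR adjusted p = 0.129) did not pass. From day 4.5 to 7.5, SLC8A1 (2.40, SE 0.52, edgeR adjusted p = 0.00669) and TRDN (2.31, SE 0.56, edgeR adjusted p = 0.0133) rose, 2 of 7 against 4.35% of all genes. With the line as a block, RYR2 (1.83, edgeR adjusted p = 0.037) and HRC (1.2, edgeR adjusted p = 0.0356) also passed in that step. The SLC8A1 step was lost when only the 2 groups were fitted (edgeR adjusted p = 0.108), and the TRDN step without line TNNI1 (0.0956) or TNNT2 (0.0730) at day 4.5 or line WT at day 7.5 (0.0575).

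At day 7.5, ATP2A2 and CACNA1C were lower in HAse1.5 than in untreated cardioids, 2 of 7 against 1.92% of all genes that fell. ATP2A2 was at 210.3, 237 and 239 CPM against 419, 488 and 516 CPM (log2 difference −1.17, SE 0.21, edgeR adjusted p = 0.00209). CACNA1C was at 46.5, 73.3 and 67.6 CPM against 146, 184 and 140.2 CPM (−1.44, SE 0.32, edgeR adjusted p = 0.0121), a call that was lost without HAse1.5 line TNNI1 (0.0934). Both genes, and SLC8A1 and RYR2, stood apart between the groups, 4 of 7 against 6.9% of all genes that were lower in every library.

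SLC8A1 was at 283, 519 and 419 CPM against 1359.8, 1352 and 1207 CPM at day 7.5 (log2 difference −1.80, SE 0.49, edgeR adjusted p = 0.0512), just outside the threshold; it passed with DESeq2 (adjusted p = 0.0338). RYR2 was at 668, 920.4 and 862 CPM against 1645, 1326 and 2164 CPM (−1.19, edgeR adjusted p = 0.245). PLN, TRDN and HRC overlapped between the groups, with log2 differences of −0.47, −0.03 and −0.13 and 95% intervals of −1.85 to 0.92, −1.13 to 1.06 and −1.03 to 0.77. At day 2.5, 0 of 7 passed (edgeR) against 1.15% of all genes, 2 (CACNA1C and RYR2) had an unadjusted p under 0.05, and DESeq2 called 1 (RYR2). RYR2 was then at 2.06, 16 and 4.37 CPM against 16.3, 49.2 and 59.4 CPM in untreated cardioids, lower in every library as were 6.7% of all genes (log2 difference −2.55, edgeR adjusted p = 0.114).

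Whether the HAse1.5 effect itself changed between days was tested as well. From day 2.5 to 4.5, 0 of 7 passed (edgeR) against 0.706% of all genes, with 3 (ATP2A2, CACNA1C and TRDN) at an unadjusted p under 0.05 and 3 by DESeq2. CACNA1C came nearest (log2 −2.63, edgeR adjusted p = 0.0642) and passed with the line as a block (0.0392). From day 4.5 to 7.5, 0 of 7 passed (edgeR) against 0.0157% of all genes, with 2 (SLC8A1 and TRDN) at an unadjusted p under 0.05 and 0 by DESeq2. Over the same days the HAse2.5 effect changed for 0 of 7 (edgeR) against 0.0% of all genes, with 0 at an unadjusted p under 0.05 and 0 by DESeq2.

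Enzyme given from day 2.5 was compared with the same untreated libraries, so both enzyme comparisons share their controls. At day 4.5, 0 of 7 passed (edgeR) against 0.22% of all genes, 2 (ATP2A2 and CACNA1C) had an unadjusted p under 0.05, and DESeq2 called 1. CACNA1C was at 37.4, 38.2 and 38.5 CPM, below the 57.7 to 99.6 CPM of untreated cardioids (log2 difference −1.07, 95% interval −1.76 to −0.38, edgeR adjusted p = 0.26). ATP2A2 (257, 229 and 226 CPM, −0.52) and SLC8A1 (564, 371 and 309 CPM, −1.01) also stood below every untreated library, which made 3 of 7 against 7.43% of all genes. RYR2, TRDN, PLN and HRC overlapped.

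At day 7.5, 0 of 7 passed in HAse2.5 (edgeR) against 0.659% of all genes, 1 (ATP2A2) had an unadjusted p under 0.05, and DESeq2 called 0. CACNA1C (123, 107 and 108 CPM), ATP2A2 (349, 309 and 399 CPM), SLC8A1 (974, 766 and 722 CPM) and RYR2 (997, 991 and 839 CPM) stood below every untreated library, 4 of 7 against 7.37% of all genes. TRDN stood above them, at 1043, 1415 and 1036 CPM against 762, 858 and 451 CPM, as did 9.55% of all genes (log2 difference 0.70, 95% interval −0.40 to 1.80), and PLN was at 201, 343 and 287 CPM against 57.1, 250.2 and 90.5 CPM (1.00, 95% interval −0.37 to 2.36).

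The 2 enzyme schedules were then set directly against each other. At day 4.5, 0 of 7 passed (edgeR) against 0.361% of all genes, with 5 at an unadjusted p under 0.05 and 1 by DESeq2. Every HAse1.5 library stood below every HAse2.5 library for 6 of 7 members, against 7.26% of all genes. SLC8A1 was lower in HAse1.5 (19.2, 188 and 43.1 CPM) than in HAse2.5 (564, 371 and 309 CPM), with a log2 difference of −2.39 (SE 0.52, edgeR adjusted p = 0.0512) that passed with the line as a block (0.0453). CACNA1C differed least, by −0.04 (95% interval −0.75 to 0.67). At day 7.5, 0 of 7 passed (edgeR) against 0.00784% of all genes, with 4 at an unadjusted p under 0.05 and 0 by DESeq2, and 5 of 7 stood below in every library, against 4.7%.

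**Figure D3:**
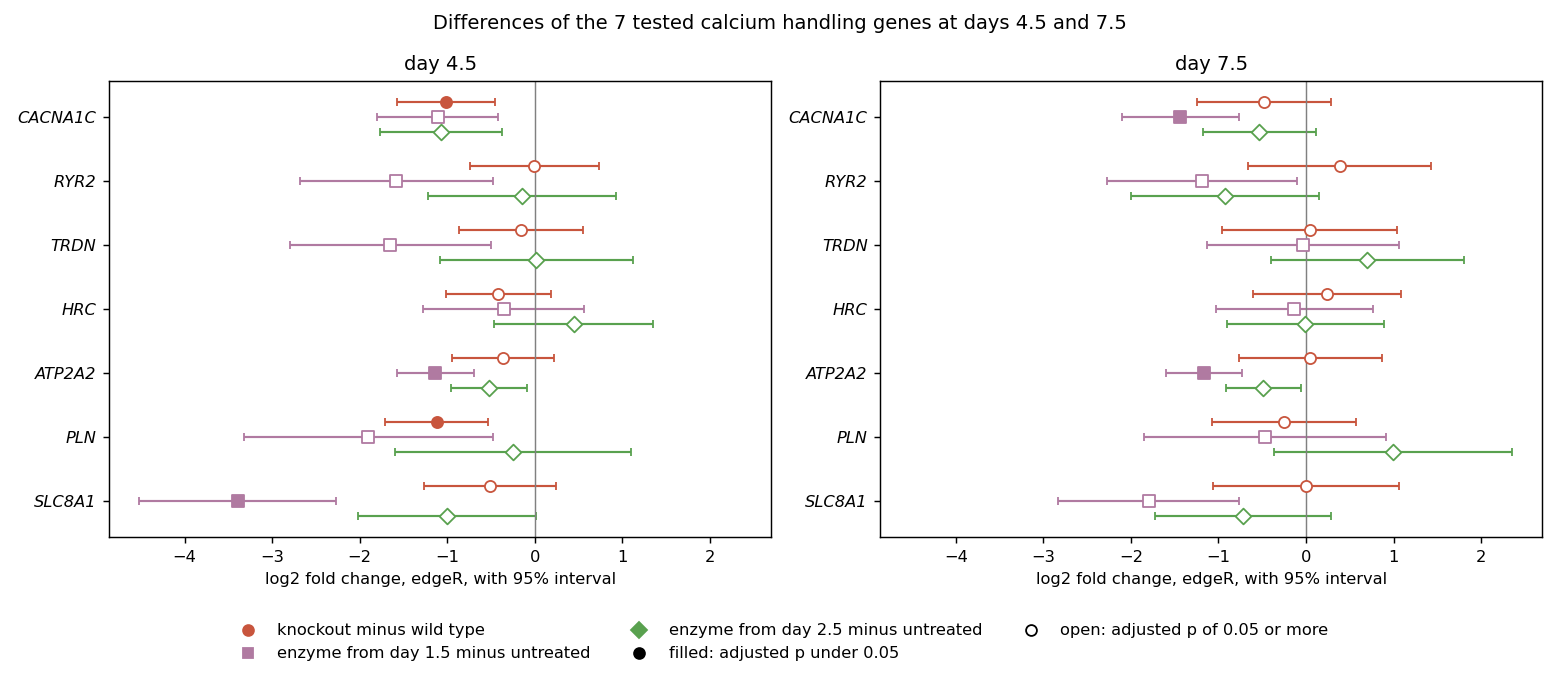
Log2 differences of the 7 tested calcium handling genes between KO and WT, HAse1.5 and untreated, and HAse2.5 and untreated cardioids at days 4.5 and 7.5, with 95% intervals; filled points passed at an adjusted p under 0.05. SLC8A1 lies at −3.40 in HAse1.5 and at −0.51 in KO at day 4.5.

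The KO effect and the HAse1.5 effect were compared in 1 fit of all 65 libraries, since each arm has its own controls. At day 4.5, SLC8A1 differed between them: its difference was 2.90 higher (log2) in KO minus WT than in HAse1.5 minus untreated (SE 0.65, 95% interval 1.6 to 4.21, edgeR adjusted p = 0.0248). It was 1 of 7 members, against 0.249% of all 14047 genes tested that passed in that direction. PLN (0.81, 95% interval −0.45 to 2.07) and CACNA1C (0.12, 95% interval −0.80 to 1.04) did not pass, so the lower CACNA1C of KO and of HAse1.5 was not shown to differ in size. At days 2.5 and 7.5, 0 of 7 passed (edgeR) against 0.0925% of all genes at either day, with 1 and 3 at an unadjusted p under 0.05 and 0 by DESeq2.

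Sarcomere genes fell beside the calcium genes in HAse1.5. At day 4.5, 12 of 15 fell (median log2 difference −3.27), against 2.41% of all genes tested. Their summed CPM was 6471 to 23205 in HAse1.5, with line WT the highest, and 32168 to 60252 in untreated cardioids. At day 7.5, 6 of 15 fell, against 1.92% of all genes, with sums of 36596 to 43573 CPM in HAse1.5 and 80728 to 95845 CPM in untreated cardioids. Of the smooth muscle genes tested, 3 of 4 fell at day 4.5, against the same 2.41% (sums of 63.4 to 124 CPM against 570.3 to 1157 CPM). Of 4 endothelial genes, 0 passed (edgeR) against 3.48% in either direction, with 1 at an unadjusted p under 0.05 and 0 by DESeq2. Their part in the calcium gene values was not tested.

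The number of PLN counts per ATP2A2 count in a library sets the inhibitor beside its pump, and does not depend on how libraries are scaled. It can depend on the mix of cells, since ATP2A2 was read at day 2.5 when PLN was hardly read. In a bulk pool, a changed mix and a changed balance within cells cannot be told apart, and neither was tested. At day 4.5 it was 0.867, 0.572, 0.837, 0.649, 0.746 and 0.608 in WT and 0.430, 0.483, 0.396, 0.178, 0.483 and 0.575 in KO. The groups overlapped only through KO cl51 and WT_TU R1. The mean log2 ratio was lower in KO by −0.82 (exact permutation test, two-sided, p = 0.00433, Benjamini-Hochberg over 6 comparisons 0.026), and 0.00216 was the smallest p possible. By day 7.5 the WT ratios were 0.459, 0.591 and 0.494 and the KO ratios 0.522, 0.283 and 0.434 (exact permutation p = 0.4).

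**Figure D4:**
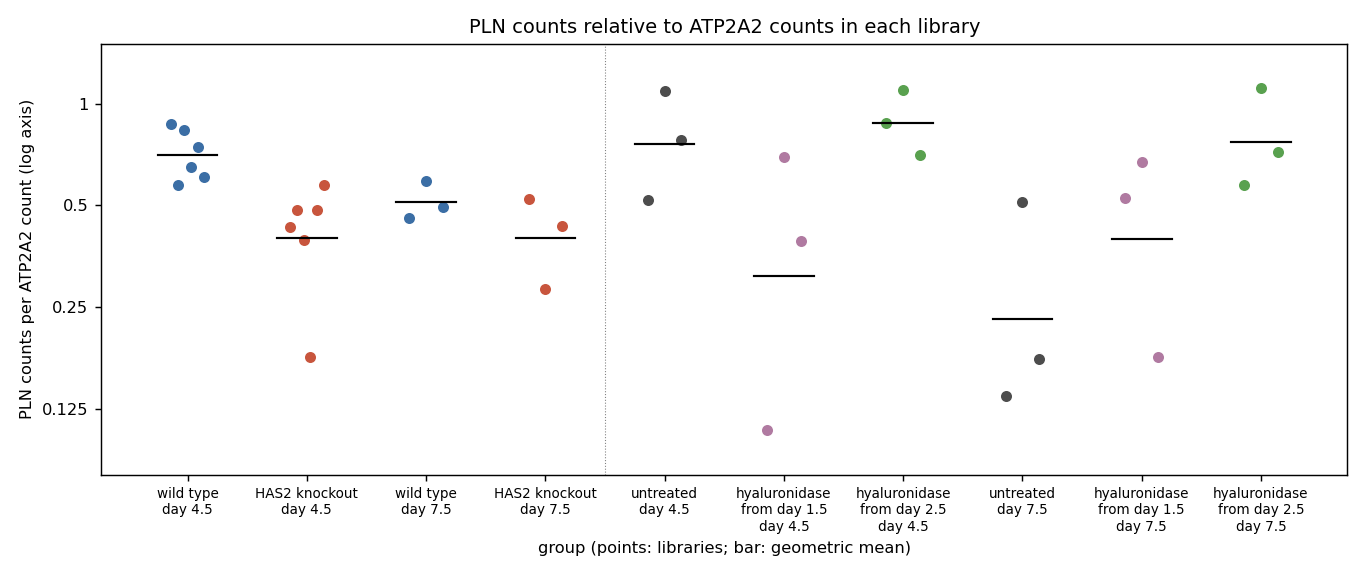
PLN counts per ATP2A2 count in each library at days 4.5 and 7.5 (log axis) for WT, KO, untreated, HAse1.5 and HAse2.5 cardioids. Points are libraries and bars are geometric means of the groups. At day 4.5 the KO libraries lie between 0.178 and 0.575 and the WT libraries between 0.572 and 0.867.

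In the enzyme arm 3 libraries stood against 3, so an exact permutation p could not go below 0.1. Untreated cardioids had ratios of 0.517, 1.09 and 0.781 at day 4.5 and 0.136, 0.513 and 0.175 at day 7.5. HAse2.5 cardioids had 0.574, 1.11 and 0.720 at day 7.5, all above the untreated libraries, with a mean log2 difference of 1.74 (exact permutation p = 0.1, adjusted 0.3). The other enzyme groups overlapped with their controls: HAse1.5 had 0.108, 0.695 and 0.392 at day 4.5 and 0.527, 0.673 and 0.178 at day 7.5, and HAse2.5 had 0.874, 1.10 and 0.705 at day 4.5.

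CASQ2 and SLN were hardly read. CASQ2 had 68 counts over all 65 libraries and at most 13 in 1 library, and SLN 124 counts and at most 11. Pooled over libraries, CASQ2 had 21 counts (1.70 CPM) in WT at day 4.5 and 4 counts (0.397 CPM) in KO, where 3 counts correspond to 0.243 and 0.298 CPM. Of the 21 WT counts, 13 came from WT_TU R1, and without it 8 counts (0.835 CPM) were left. SLN, pooled the same way, had 24 counts (1.94 CPM) in WT and 36 counts (3.57 CPM) in KO at day 4.5, and 1 count (0.203 CPM) in WT and 17 counts (3.56 CPM) in KO at day 7.5. By library, SLN ran from 3.05 to 4.63 CPM in KO and from 0 to 2.52 CPM in WT at day 4.5. At day 7.5 it ran from 2.66 to 4.56 CPM in KO and from 0 to 0.698 CPM in WT. The groups did not overlap in CPM at either day, at counts of 11 or fewer. As counts they overlapped at day 4.5, with 5 to 8 in KO and 0 to 8 in WT. The highest WT counts, 8 in WT R1 and 7 in WT_TU R1, came from the deepest libraries of these groups. KO stood above WT in CPM for 1.25% of all genes tested at day 4.5 and 9.11% at day 7.5. These shares cover genes that passed the filter on low counts, which SLN did not. Without a filter on low counts, neither gene passed between KO and WT or with the enzyme. In that fit CASQ2 rose from day 2.5 to 4.5 in WT (edgeR adjusted p = 0.0236), a call lost without WT_TU R1 at day 4.5 (0.159) or WT R1 at day 2.5 (0.0549). SLN rose over the same days in KO (0.00499), and this call held without any 1 library of the step (0.00078 to 0.0151). SLN fell from day 4.5 to 7.5 in untreated cardioids (0.0318), which was lost without any library of the step but line WT at day 4.5 (0.0831 to 0.154). These leave-one-out fits were chosen after seeing the data.

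Of 54 other calcium handling genes, 41 were tested in the genotype arm and 39 in the enzyme arm. From day 2.5 to 4.5 in WT, 17 rose and 4 fell, against 18.6% and 15.9% of all genes tested. The 3 largest rises were in SRL (sarcalumenin, a calcium-binding protein of the reticulum, at least 17.6-fold over the floor), CACNA1D (another L-type channel pore, 5.84 on the log2 scale) and CACNB2 (an accessory L-type channel subunit, 5.01). The largest falls were in ITPR3 (an inositol trisphosphate receptor, −2.22), BIN1 (a membrane-curving protein of T-tubules, −1.81) and FKBP1B (a ryanodine receptor binding protein, −0.75). From day 4.5 to 7.5 in WT, 5 rose and 0 fell, against 1.25% of all genes that rose, led by RYR1 (2.69), AKAP6 (an anchor of protein kinase A, 2.43) and SRL (1.78). FKBP1B lost its call in 9 of 18 alternatives, and RYR1, AKAP6 and SRL lost theirs in 3, 7 and 6 of 15, each of these without WT_TU R2 at day 7.5.

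Between KO and WT at day 4.5, CACNA1D rose (log2 difference 1.05, edgeR adjusted p = 0.0334), at 289 ± 85.5 CPM in KO and 135 ± 63.0 CPM in WT (SD, n = 6 each). ORAI1, a store-operated calcium channel, fell (−1.0, edgeR adjusted p = 0.0441). They were 1 of 41 in either direction, near the 1.14% of all genes that rose and the 2.6% that fell. CACNA1D lost its call in 9 of 19 alternatives and ORAI1 in 14 of 19, among them leaving out WT R1 or WT_TU R1, and within the last block of library numbers their log2 differences were 0.59 (edgeR adjusted p = 0.541) and −0.22 (0.854). At days 1.5, 2.5 and 7.5, 0 of the 41 passed (edgeR), with 3, 4 and 2 at an unadjusted p under 0.05 and 0 by DESeq2 at each. CACNA1D also differed between the KO and HAse1.5 effects at day 4.5 (log2 2.97, edgeR adjusted p = 0.00485).

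With HAse1.5, 0 of the 39 passed at day 2.5 (edgeR), with 6 at an unadjusted p under 0.05 and 1 by DESeq2. At day 4.5, 6 fell and 0 rose, against 2.41% of all genes that fell, led by CACNB2 (log2 difference −3.64, edgeR adjusted p = 0.000688), TMEM38A (a cation channel of the reticulum, −3.07, edgeR adjusted p = 0.00416) and JPH2 (junctophilin, which holds the reticulum to the cell surface membrane, −2.74, edgeR adjusted p = 0.0093). JPH2 lost its call without untreated line TNNI1 (0.096) or HAse1.5 line TNNI1 (0.0535) or TNNT2 (0.077). At day 7.5, 4 fell, against 1.92% of all genes, led by AKAP6 (−3.46), CACNB2 (−2.21) and ATP2B4 (a calcium pump of the cell surface, −1.64). STIM1, the calcium sensor of the endoplasmic reticulum that opens ORAI1, was the 1 that rose (1.41% of all genes), at 79.9 ± 18.7 CPM against 28.7 ± 11.6 CPM (SD, n = 3 each, log2 difference 1.36, edgeR adjusted p = 0.00381), a call that was lost when only the 2 groups were fitted (0.106). AKAP6 lost its call without untreated line TNNT2 (0.052). With HAse2.5, 0 of 39 passed at day 4.5 (edgeR), with 1 at an unadjusted p under 0.05 and 0 by DESeq2. At day 7.5, STIM1 rose (1.44, edgeR adjusted p = 0.0127) while AKAP6 (−3.00) and ATP2B4 (−1.01) fell, against 0.345% of all genes that rose and 0.314% that fell, measured against the same untreated libraries. These 3 HAse2.5 calls were lost in 4, 6 and 5 of 12 alternatives, and each was lost when only the 2 groups were fitted, without line TNNT2 in either group and without line WT in HAse2.5.

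The members' patterns were compared by correlation of mean log2 CPM over the 16 groups, given as a description of n = 16 points that share libraries and the rise with day. Between members, r ran from 0.631 (ATP2A2 and HRC) to 0.987 (RYR2 and SLC8A1). The gene most like RYR2 was TPM1 (r = 0.993), an actin-binding protein of the sarcomere. HIPK3 was most like PLN (0.993), TRH most like ATP2A2 (0.979), PDLIM5 most like SLC8A1 (0.993), LDB3 most like CACNA1C (0.984), EEF1A2 most like TRDN (0.981) and ATP1B2 most like HRC (0.991).

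Within groups, where day and treatment are removed, the closest pair was again RYR2 and SLC8A1, and every pair had a lower r. Over deviations from the group means at days 4.5 and 7.5 (n = 36 libraries), RYR2 and SLC8A1 kept r = 0.913 and ATP2A2 and TRDN 0.761, whereas CACNA1C had r between −0.22 and 0.02 with the others. Libraries high in RYR2 within their group were thus also high in SLC8A1, and CACNA1C varied apart from both. Line, clone and block of library numbers were not removed. At day 4.5 WT R1 and WT_TU R1 in WT, and cl46 and cl51 in KO, were lowest for both RYR2 and SLC8A1.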

How the data were processed

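Gene expression was measured by 3′ mRNA sequencing in 65 libraries of cardioids. Read counts per gene were made by the authors with featureCounts of Subread 1.6.2 on hg38 (GRCh38), per the submitters' processing notes, and are used as deposited. The aligner, the strand setting and the treatment of reads matching several genes are not given in the sources used here. The kit reads transcript ends, so levels are compared between samples and not between genes. A further 4 count columns match none of the listed samples and were left unused. Of 58735 identifiers, 58207 matched a symbol, and all occur in GENCODE 29, which gave the positions.

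Groups were taken from the sample titles. CPM values are counts divided by the library total. Tests used edgeR 4.0.16 in R 4.3.3 (filterByExpr with a minimum count of 10, TMM factors, robust quasi-likelihood fit, 1 mean per group, all groups of an arm together), with Benjamini-Hochberg adjustment over all genes tested and a threshold of 0.05. There were 22 comparisons of 2 groups and 8 differences of effects, the latter including a fit of both arms. The PLN to ATP2A2 ratio used log2 values with 0.5 added to each count and an exact permutation test. DESeq2 1.42.0, RLE factors, library totals, no filter, fits of only the groups compared, blocks and leaving out libraries were alternatives. The fit was tested on simulated data for 2 comparisons at day 4.5. A 2-fold change was recovered in 36.1% of changed genes for KO minus WT and in 20% for HAse1.5 minus untreated. For a 4-fold change these shares were 85.7% and 66.7%. A gene that did not pass may therefore still differ by such amounts. For KO minus WT, 12 unchanged genes were called, beside 35 recovered at 2-fold and 84 at 4-fold. For HAse1.5 minus untreated, 3 were called, beside 19 and 66. A gene that passed may thus also be a false call. Python 3.11.15 was used for descriptions and figures.

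Members are reported in every comparison whether or not they passed. Of the other calcium handling genes, those past the threshold with 1 of the 3 largest changes per direction are named. The members, lists and tests were chosen with earlier results of these data known, so they are no independent support for them. A group in which no library exceeded 3 counts of a gene sets only a limit, so folds relative to it are given as lower bounds. No molecular identifiers are mentioned in the labels, so PCR copies may be counted and the floors cover counting error only.

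In the enzyme arm a replicate number stands for 1 line, and across days a replicate name stands for 1 line or clone, so these numbers pair samples. Residual deviations of paired libraries correlated above 0.1 in 15 of 21 pairs of the same line in the enzyme arm and in 22 of 29 pairs across days in the genotype arm. Between WT and KO, libraries share only a block of library numbers. Of 37 such pairs 26 were above 0.1 (up to 0.787, in the first block at day 1.5), but not all. The main fits used no pairing in either arm, also where lines or clones pair the samples. Lines, replicate names and blocks of library numbers entered only as alternatives.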

Additional observations from a re-analysis of the deposited data

Results flagged for a closer look

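The pump gene ATP2A2 had a library standing apart in 2 groups, both times clone cl4 R1. In KO at day 1.5 it had 361 CPM in cl4 R1, against 99.0 to 158 CPM in the other 5 libraries. In KO at day 2.5 it had 235 CPM in cl4 R1, against 114 to 132 CPM in the other 5, and this was the library with the fewest counts of all, 831062. A gap of this size relative to the group's range is reached by chance in about 1 of 20 groups, and 42 sets of a member and a group were looked at. At day 4.5 cl4 R1 lay within the KO range for ATP2A2, at 466 CPM. The WT libraries of the same block of library numbers, WT_TU R1 and WT R1, were also the highest 2 of their groups. They were at 290.4 and 197 CPM on day 1.5, 245 and 210 CPM on day 2.5 and 743 and 499 CPM on day 4.5. Within KO, cl4 R1 was the only library of that block, so clone, block and library cannot be told apart there. The cause of the high values was not tested.

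SLC8A1 differed between the KO effect and the HAse1.5 effect at day 4.5 by 2.90 on the log2 scale (edgeR adjusted p = 0.0248 over all genes tested). It was −0.51 between KO and WT and −3.40 between HAse1.5 and untreated cardioids. Each arm has its own control libraries, although a line named WT is in both, and the part of these in the difference was not tested.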

How the results depend on the processing

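Of 43 differences of a member that passed, 34 kept direction and call under every alternative run, 9 lost the call under at least 1, and 0 changed direction. The number of members that passed moved most at days 4.5 and 7.5. Between KO and WT at day 4.5 it was 2, and 1 with library totals as the only scaling, 1 when only the 2 groups were fitted and 0 within the last block of library numbers; leaving out single libraries gave 0 to 2. Within that block at day 2.5, 1 passed where 0 did before (RYR2, log2 difference −1.38, edgeR adjusted p = 0.00402). From day 4.5 to 7.5, WT had 0, and 1 when only the 2 groups were fitted and 1 with DESeq2. In KO the same step had 1, 2 with the replicate block and 4 when only the 2 groups were fitted (1 to 2 on leaving out libraries). In untreated cardioids it had 1, but 0 with library totals and 2 with no filter, with only the 2 groups or with DESeq2 (0 to 3). HAse2.5 had 1, and 4 when only the 2 groups were fitted (0 to 1).

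HAse1.5 minus untreated at day 4.5 had 2 members, 4 with the replicate block and 1 when only the 2 groups were fitted (2 to 5). It had 3 with DESeq2, and CACNA1C also passed with no filter (edgeR adjusted p = 0.00328). At day 2.5 this comparison had 0, and 1 with DESeq2 (0 to 1). At day 7.5 it had 2 (1 to 2 on leaving out libraries), and 3 with DESeq2, where SLC8A1 passed too. SLC8A1 also passed there with RLE factors (edgeR adjusted p = 0.0468) and when only the 2 groups were fitted (0.00968). The HAse1.5 step from day 4.5 to 7.5 had 2, and 3 with DESeq2 and 4 with the replicate block (1 to 4). HAse2.5 minus untreated at day 4.5 had 0, and 1 with no filter, 1 with only the 2 groups and 1 with DESeq2. HAse1.5 minus HAse2.5 at day 4.5 had 0, and 1 with the replicate block and 1 with DESeq2 (0 to 3). For these shifts the cause was not tested.

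Between KO and WT, libraries share a block of library numbers but no line or stated batch; 26 of 37 such pairs correlated above 0.1 (−0.0742 to 0.787), short of all. With the numbering blocks as a replicate block PLN had a log2 difference of −0.84 (edgeR adjusted p = 0.0073) and CACNA1C −0.98 (0.0044) at day 4.5. Scaling by library totals moved the median of all genes between HAse1.5 and untreated at day 7.5 to 0.13. The log2 PLN to ATP2A2 difference between HAse2.5 and untreated at day 4.5 was 0.21, and −0.0712 to 0.46 on leaving out libraries. CASQ2 and SLN did not pass the filter on low counts and were tested only without it.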
